A study of Mus musculus with 6 samples.

Results

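The genes described here carry glucose from the medium to fructose-1,6-bisphosphate: the glucose transporter Slc2a1, the hexokinases Hk1, Hk2 and Hk3, the glucose-6-phosphate isomerase Gpi1, the phosphofructokinases Pfkl, Pfkm and Pfkp, and the enzymes Pfkfb3 and Pfkfb4 that set the level of a phosphofructokinase activator. They were chosen by name, and 10 of 10 were found among the 54429 genes of the deposited table, each as a single entry. RNA was sequenced from RAW264.7, a permanent line of mouse macrophages that grew out of a virus-induced tumour, with 3 libraries per group. Gel/S, the control, was kept static for 3 d with GelMA, a gelatin hydrogel carrying methacryloyl groups. C/D was kept for 3 d with GelMA/PEDOT:PSS+PLLA/PDA, a composite in which PEDOT:PSS conducts electricity and PLLA/PDA is added as well, and was exposed to low-frequency ultrasound of 48 kHz for 5 min to mimic a moving environment. Both groups thus share the cell line and the GelMA base, and gel composition and ultrasound changed together, so their parts in a difference cannot be told apart. The columns of C/D carry the letters US, read here as ultrasound, and every direction rests on that reading. Libraries are numbered 1 to 3 in each group as in the labels, which do not say that they came from separate cultures, so p-values cover the spread between libraries alone, and that spread may be technical.

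Glucose enters macrophages mainly by facilitated diffusion through GLUT1, the product of Slc2a1, and is trapped by hexokinase as glucose-6-phosphate. Gpi1 turns that into fructose-6-phosphate, and phosphofructokinase adds the second phosphate in the step that commits the sugar to glycolysis. Pfkfb3 and Pfkfb4 make and degrade fructose-2,6-bisphosphate, the strongest activator of phosphofructokinase, and Pfkfb3 has by far the higher kinase activity. Macrophages raise glucose uptake and glycolysis when they are activated by inflammatory stimuli, and HIF1A and MYC are known to drive many of these genes.

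C/D macrophages held less mRNA for glucose uptake, for glucose phosphorylation by Hk2 and Hk1, and for the phosphofructokinases Pfkl and Pfkp. Of the 10 genes, 5 fell and 5 did not pass the test, while no gene rose. The median of their log2 fold changes was −0.32, against a median of 0.01 over the 11708 genes tested. Across all genes tested, 27.0% were called by the same rule, 13.9% as lower and 13.1% as higher (edgeR quasi-likelihood test on counts, Benjamini-Hochberg adjusted p under 0.05). In mean FPKM (fragments per kilobase of gene, scaled to library size) Slc2a1 changed by −50.9% and Hk2 by −54.0%, while Hk3, Gpi1, Pfkm, Pfkfb3 and Pfkfb4 did not pass. All log2 fold changes are C/D over Gel/S, so negative values are lower in C/D. The count of 5 fallen was 4 without C/D 2 and 4 without C/D 3, where Pfkp lost its call. In whole cultures, fewer cells that express a gene and less of its RNA per cell cannot be told apart.

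**Figure D1:**
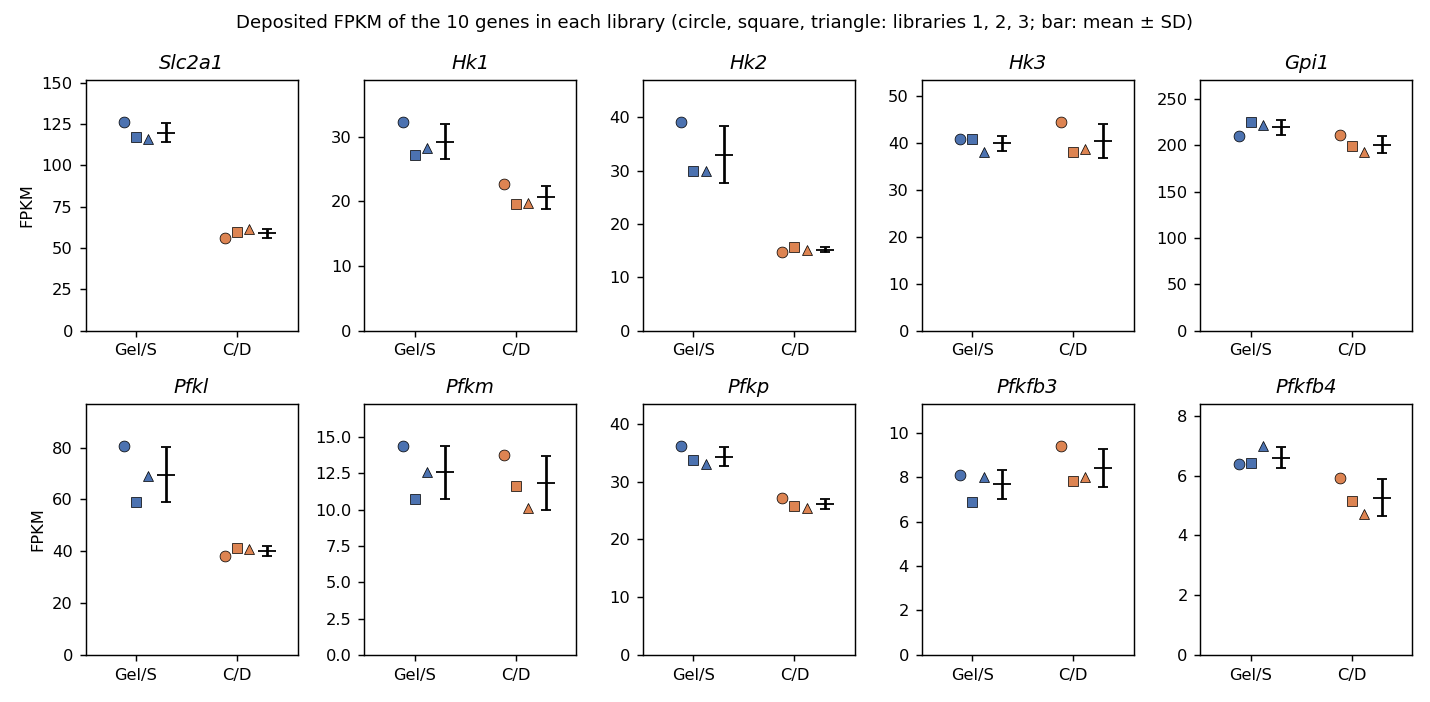
Level of each gene in FPKM in the 3 Gel/S and 3 C/D libraries, with the mean ± SD beside the points and every axis starting at 0. The groups do not overlap for Slc2a1, Hk1, Hk2, Pfkl, Pfkp and Pfkfb4, all lower in C/D, and overlap for the other 4 genes.

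The libraries held 12818831 to 16525699 counts, and each of the 10 genes had 345 to 23485 counts in a library. Mitochondrial transcripts took 5.59 to 9.02% of the counts in Gel/S and 9.17 to 10.4% in C/D, and their part in the results was not tested. Of 10 macrophage markers, 9 passed the filter on low levels, and Mertk had 5 counts in the 6 libraries together. Their summed level was 13540 to 14141 FPKM in Gel/S and 11021 to 11190 FPKM in C/D. Most of it was Lyz2, with means of 10197 and 8024 FPKM, which did not pass (edgeR adjusted p = 0.0649), so the sum does not describe the other markers. Of the 9, 1 gene, Csf1r, fell (log2 fold change −0.48, edgeR adjusted p = 0.00736). That count was 3 without Gel/S 1 and 4 without Gel/S 2, 4 with no filter on low levels, and 3 with edgeR's own filter, with scaling to library size only, with DESeq2 and on TPM. Markers of osteoclasts, which RAW264.7 cells can form, summed to 62.2 to 63.3 FPKM in Gel/S and 55.7 to 61.5 FPKM in C/D. Of their 5 tested members, Acp5 and Atp6v0d2 rose, Dcstamp fell, and Ocstamp and Nfatc1 did not pass. Calcr was at 0, and Ctsk, Mmp9 and Oscar stayed under 1 FPKM in every library. The part of these markers in the results was not tested. All 7 fibroblast, 4 epithelial and 4 endothelial markers were under 1 FPKM in every library.

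Slc2a1 (ENSMUSG00000028645, chromosome 4, 119108711 to 119137983, GRCm38) had 127, 117 and 116 FPKM in Gel/S 1 to 3 and 55.9, 59.5 and 61.2 FPKM in C/D 1 to 3. Every Gel/S library lay well above every C/D library, and the spread within each group was small. The mean went from 119.9 ± 5.84 to 58.9 ± 2.70 FPKM (SD, n = 3 per group), a log2 fold change of −0.98 with a standard error (SE) of 0.0862 (edgeR adjusted p = 6.29e-05), the 112th lowest of all genes tested. Reads of the antisense gene Gm12867, which lies on the opposite strand of the same locus and itself fell (log2 fold change −1.05, edgeR adjusted p = 0.0190), came to 0.785% of the Slc2a1 counts. The sources used here do not say whether counting used strand, so reads of the pair cannot be told apart.

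Among the other hexose transporters, 4 of 11 were measured above the filter, of which 1 fell and 3 did not pass. The one that fell was Slc2a6, which encodes GLUT6, a transporter of internal membranes that is abundant in white blood cells. Its level in Gel/S was close to that of Slc2a1, at 124.8 ± 11.8 FPKM, and 90.2 ± 4.14 FPKM in C/D (log2 fold change −0.43, edgeR adjusted p = 0.00878), a call lost without C/D 3 (adjusted p = 0.0511). In C/D the mean FPKM of Slc2a6 was above that of Slc2a1, by the listed gene lengths. Slc2a3, which encodes the high-affinity transporter GLUT3 and is named after its values were seen, was at 4.19 ± 1.12 and 3.69 ± 0.155 FPKM and did not pass in the full set of libraries (adjusted p = 0.549), although it was called as lower without Gel/S 2 (adjusted p = 0.0350).

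Of the hexokinases, Hk2 changed most. Hk2, the inducible form that binds the outer mitochondrial membrane (ENSMUSG00000000628, chromosome 6, 82725025 to 82774454), had 39.2, 29.9 and 30.0 FPKM in Gel/S 1 to 3 and 14.8, 15.7 and 15.0 FPKM in C/D 1 to 3. Gel/S 1 stood above the other controls, and the 3 C/D libraries lay close together, far under the lowest control. The log2 fold change was −1.08 with an SE of 0.106 (edgeR adjusted p = 0.000111), and −0.94 without Gel/S 1. It was the 78th lowest of all genes tested.

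Hk1, the form found in most tissues, which also binds mitochondria (ENSMUSG00000037012, chromosome 10, 62268855 to 62379908), had 32.4, 27.2 and 28.2 FPKM in Gel/S and 22.7, 19.5 and 19.7 FPKM in C/D. Its groups did not overlap, and the library numbered 1 was the highest in each group. The log2 fold change was −0.46 with an SE of 0.0981 (edgeR adjusted p = 0.00623). Hk3, a hexokinase of white blood cells that lacks the mitochondrial binding segment (ENSMUSG00000025877, chromosome 13, 55005985 to 55021385), had 40.9, 40.9 and 38.1 FPKM in Gel/S and 44.6, 38.0 and 38.7 FPKM in C/D. These ranges overlapped, and the log2 fold change was 0.06 with a 95% interval of −0.14 to 0.26 (edgeR adjusted p = 0.643). The sign of Hk3 turned without C/D 1 and on TPM, which are FPKM rescaled to the same sum in each library.

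Summed over the 3 genes, hexokinase mRNA went from 102.3 ± 8.89 to 76.3 ± 5.05 FPKM (exact permutation p = 0.1, 2-sided, n = 3 per group, the smallest that 3 against 3 libraries allow), a change of −25.4%. Hk2 made up 68.7% of that difference and Hk1 33.2%, with Hk3 at −1.90%. The shares of the isoforms come from these same levels and are given as a description, not as a further result. Hk2 took 34.9, 30.5 and 31.1% of hexokinase FPKM in Gel/S and 18.0, 21.5 and 20.5% in C/D, a difference of −12.2 percentage points (exact permutation p = 0.1). Hk3, the most abundant of them in every library, went from 39.2 ± 2.71% to 53.0 ± 1.24%, while Hk1 was at 28.6 ± 0.785% and 27.0 ± 0.549%.

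Gpi1, the isomerase that also serves the pentose phosphate and gluconeogenic routes (ENSMUSG00000036427, chromosome 7, 34201330 to 34230336), was the most abundant of the 10 genes. It had 210.5, 226 and 222 FPKM in Gel/S and 211, 199 and 192 FPKM in C/D. The groups met, with C/D 1 just above Gel/S 1. The log2 fold change of −0.09 had a 95% interval of −0.30 to 0.13 (edgeR adjusted p = 0.533). The log2 fold changes of Slc2a1, Hk1, Hk2, Pfkl and Pfkp lay outside it, that of Pfkp (−0.35) only just. The 95% intervals of Hk1 (−0.67 to −0.25) and Pfkp (−0.54 to −0.16) overlapped that of Gpi1. Whether Gpi1 differed from these genes was not tested.

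Of the phosphofructokinases, the liver-type gene Pfkl fell most. Pfkl (ENSMUSG00000020277, chromosome 10, 77986947 to 78010083) had 80.7, 59.2 and 69.0 FPKM in Gel/S and 38.0, 41.3 and 41.1 FPKM in C/D. The controls were spread widely, with Gel/S 1 on top, yet the lowest control stayed above the highest C/D library. The log2 fold change was −0.75 with an SE of 0.110 (edgeR adjusted p = 0.000950), and −0.64 without Gel/S 1.

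Pfkp, the platelet-type gene (ENSMUSG00000021196, chromosome 13, 6579768 to 6648777), had 36.2, 33.8 and 33.1 FPKM in Gel/S and 27.2, 25.7 and 25.4 FPKM in C/D. The groups were narrow and did not overlap, and the log2 fold change was −0.35 with an SE of 0.0868 (edgeR adjusted p = 0.0123). The call was lost without C/D 2 (adjusted p = 0.0667) and without C/D 3 (adjusted p = 0.0643). Pitrm1 overlaps Pfkp on the opposite strand and did not pass (log2 fold change −0.27, edgeR adjusted p = 0.134). Its counts over the whole gene, not the shared stretch alone, were equal to 9.80% of those of Pfkp.

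Pfkm, the muscle-type gene (ENSMUSG00000033065, chromosome 15, 98092589 to 98132451), was the least abundant phosphofructokinase. It had 14.4, 10.7 and 12.6 FPKM in Gel/S and 13.8, 11.7 and 10.1 FPKM in C/D, ranges that overlapped over most of their length. The log2 fold change was −0.04 with a 95% interval of −0.33 to 0.24 (edgeR adjusted p = 0.830), and its sign turned without Gel/S 1 and without C/D 3. Senp1 overlaps Pfkm on the opposite strand. Over its whole length Senp1 had 4140 counts in the 6 libraries, against 3729 for Pfkm. How many of them lay in the shared stretch was not tested, so the level of Pfkm is uncertain if reads were counted without strand.

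Together the 3 phosphofructokinase genes went from 116 ± 13.9 to 78.1 ± 1.29 FPKM, a change of −33.0% (exact permutation p = 0.1, n = 3 per group). Pfkl made up 76.7% of the difference, Pfkp 21.4% and Pfkm 1.88%. The share of Pfkl went from 59.6 ± 2.26% to 51.4 ± 2.88%. Pfkp took 27.6, 32.6 and 28.9% in Gel/S and 34.4, 32.7 and 33.2% in C/D, a difference of 3.78 percentage points, with Gel/S 2 and C/D 2 almost level. Pfkm went from 10.8 ± 0.355% to 15.1 ± 2.15%. Each of these shares had an exact permutation p of 0.1.

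**Figure D2:**
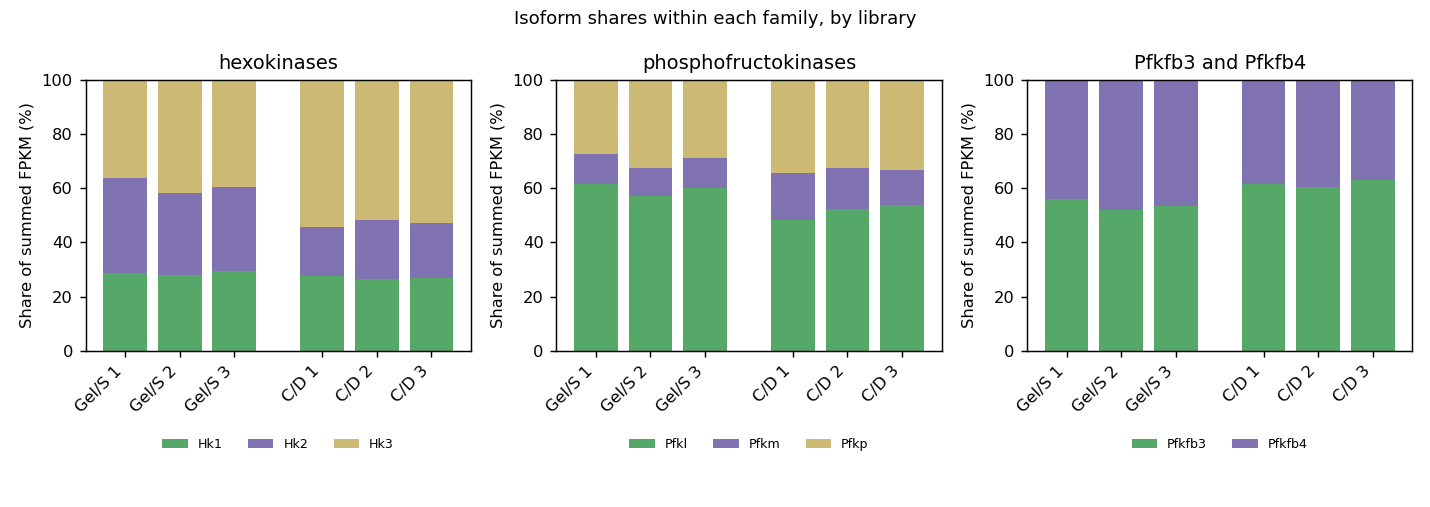
Share of each isoform in the summed FPKM (%) of its family, 1 bar per library, for hexokinases, phosphofructokinases and the pair Pfkfb3 and Pfkfb4. The Hk2 band is 30.5 to 34.9% in Gel/S and 18.0 to 21.5% in C/D, and the Hk3 band is wider in each C/D library than in any Gel/S library.

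The 2 genes for the activator enzymes were the least abundant of the 10 and did not pass. Pfkfb3 (ENSMUSG00000026773, chromosome 2, 11471433 to 11554077) had 8.09, 6.90 and 8.02 FPKM in Gel/S and 9.41, 7.84 and 8.01 FPKM in C/D. The ranges overlapped, and the log2 fold change was 0.18 with a 95% interval of −0.04 to 0.40 (edgeR adjusted p = 0.208). Pfkfb4 (ENSMUSG00000025648, chromosome 9, 108991778 to 109032228) had 6.39, 6.42 and 6.997 FPKM in Gel/S and 5.91, 5.17 and 4.70 FPKM in C/D. Its groups did not overlap, but the log2 fold change of −0.29 (SE 0.112) did not pass (edgeR adjusted p = 0.0751), except with no filter on low levels (adjusted p = 0.0406).

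Pfkfb4 took 44.2, 48.2 and 46.6% of the summed FPKM of the pair in Gel/S and 38.6, 39.7 and 37.0% in C/D. All 3 C/D shares lay under all 3 Gel/S shares, a difference of −7.87 percentage points (exact permutation p = 0.1). Their sum was 14.3 ± 0.864 and 13.7 ± 1.43 FPKM (exact permutation p = 0.6, n = 3 per group).

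**Figure D3:**
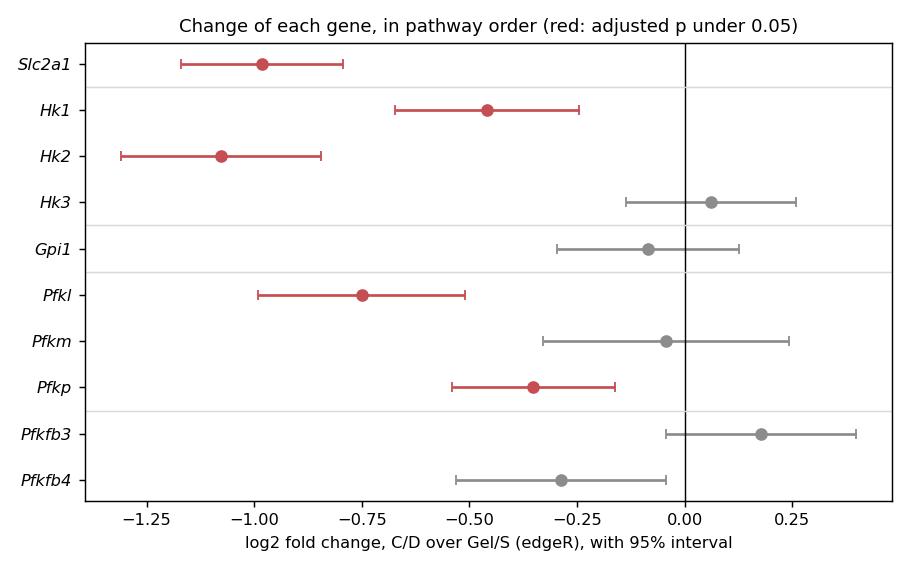
Log2 fold change of each gene (C/D over Gel/S, edgeR) with its 95% interval, from uptake at the top to the activator enzymes at the bottom. The 5 genes in red passed an adjusted p of 0.05, all to the left of 0, and Hk2 and Slc2a1 lie farthest out at −1.08 and −0.98.

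Ratios of isoforms within a library do not depend on how libraries are scaled, and all 7 pairs within the 3 families were compared. The ratio of Hk2 to Hk3 differed most. Its log2 value was −0.06, −0.45 and −0.35 in Gel/S and −1.59, −1.27 and −1.37 in C/D, a difference of −1.12. The log2 ratio of Hk1 to Hk2 differed by 0.61, that of Hk1 to Hk3 by −0.52, that of Pfkl to Pfkm by −0.70, that of Pfkl to Pfkp by −0.39 and that of Pfkfb3 to Pfkfb4 by 0.47. In these 6 pairs the groups did not overlap (exact permutation p = 0.1 each, adjusted p = 0.117 over the 7 pairs), and 3 libraries against 3 cannot pass 0.05. Pfkm to Pfkp was the exception, with overlapping groups and a difference of 0.31 (exact permutation p = 0.2). Pairs of hexokinases or of phosphofructokinases share genes, so the 7 ratios are not independent. How often ratios of other genes separate was not tested, while 46.2% of single genes tested did not overlap in FPKM. The count of 6 is therefore not read as a result about the isoform mix.

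Over all 10 genes, the FPKM of the groups did not overlap for 6, all lower in C/D, where 46.2% of all genes tested did not overlap, 27.1% lower in C/D and 19.1% higher. The authors' deposited table, whose sign was turned to C/D over Gel/S, lists the same 5 genes with an adjusted p under 0.05, where 16.6% of the genes tested here were lower by that rule. It gives Pfkfb4 a log2 fold change of −0.33 with an adjusted p of 0.0605.

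Libraries within a group also differed. Gel/S 1 had the highest control level of 7 of the 10 genes, the exceptions being Hk3, Gpi1 and Pfkfb4. C/D 1 had the highest C/D level of 7 genes and the lowest of the other 3, which were Slc2a1, Hk2 and Pfkl, the 3 with the steepest falls. C/D 1 was also the library with the fewest counts.

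By FPKM, the order of levels in Gel/S ran from Gpi1 through Slc2a1, Pfkl, Hk3, Pfkp, Hk2, Hk1, Pfkm and Pfkfb3 to Pfkfb4. Neighbours overlapped for Pfkp and Hk2, Hk2 and Hk1, and Pfkfb3 and Pfkfb4. In C/D the order was Gpi1, Slc2a1, Hk3, Pfkl, Pfkp, Hk1, Hk2, Pfkm, Pfkfb3 and Pfkfb4, with overlap between Hk3 and Pfkl only. Hk3 and Pfkl thus stood side by side in C/D, at 40.5 ± 3.62 and 40.1 ± 1.82 FPKM.

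This order depends on the gene length behind FPKM. The authors list 13401 bases for Pfkp, while its longest protein-coding transcript in GENCODE M21 has 4145 bases, and they list 8532 bases for Hk1 against 4278. Per kilobase of the longest coding transcript, Pfkp would stand at 111 in Gel/S in place of 34.3, near Pfkl at 124.5 and Slc2a1 at 129, and in C/D Pfkp at 84.4 would be above both, at 71.8 and 63.3. Hk1 would then be the most abundant hexokinase in Gel/S at 58.4, with Hk3 at 45.7 and Hk2 at 35.8. On that length Hk2 made up 53.8% and Hk1 47.8% of the difference in summed hexokinase level, and Pfkl 65.8% and Pfkp 33.2% of that in phosphofructokinase. A gene's own log2 fold change does not depend on its length.

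The sequences just upstream of the start sites are shown for the 3 genes with the steepest falls and for Hk3, the hexokinase that did not pass. Promoters from RefSeq on GRCm38.p6 were matched for 10 of 10 genes by symbol, and the 250 bases before the start nearest the listed 5′ end are given 5′ to 3′ on the gene's strand. Capitals mark the letters ACGTG or GCGTG on either strand, the core of the element that HIF1A recognises.
Slc2a1, chr4:119108495-119108744, plus strand: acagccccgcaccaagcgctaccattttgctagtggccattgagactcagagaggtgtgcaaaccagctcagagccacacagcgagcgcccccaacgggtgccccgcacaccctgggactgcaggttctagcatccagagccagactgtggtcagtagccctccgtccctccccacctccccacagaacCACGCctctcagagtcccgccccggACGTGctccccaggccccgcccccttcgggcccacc
Hk2, chr6:82774455-82774704, minus strand: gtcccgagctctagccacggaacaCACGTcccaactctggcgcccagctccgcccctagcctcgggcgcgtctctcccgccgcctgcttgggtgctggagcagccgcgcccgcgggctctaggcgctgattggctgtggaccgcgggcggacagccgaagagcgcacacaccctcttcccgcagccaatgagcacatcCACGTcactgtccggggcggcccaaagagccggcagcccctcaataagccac
Pfkl, chr10:78009808-78010057, minus strand: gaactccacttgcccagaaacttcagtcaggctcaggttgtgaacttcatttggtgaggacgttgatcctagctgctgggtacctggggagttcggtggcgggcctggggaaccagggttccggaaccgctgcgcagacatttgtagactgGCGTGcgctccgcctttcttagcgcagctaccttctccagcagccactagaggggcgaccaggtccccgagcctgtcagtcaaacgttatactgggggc
Hk3, chr13:55021386-55021635, minus strand: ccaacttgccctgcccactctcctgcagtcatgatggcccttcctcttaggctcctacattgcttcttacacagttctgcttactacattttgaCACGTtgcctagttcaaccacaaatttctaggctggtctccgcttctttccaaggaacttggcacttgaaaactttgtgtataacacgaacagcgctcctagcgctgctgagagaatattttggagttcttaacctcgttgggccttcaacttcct

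Slc2a1 holds 2 such matches, beginning 61 and 36 bases before the start, and Hk2 holds 2, at 226 and 52 bases. Pfkl holds 1 at 99 bases and Hk3 holds 1 at 156 bases, so each of the sequences shown holds at least 1 match. Over the 10 genes, 8 held at least 1 match, where 38.6% of 32851 promoter windows of the same length in the table did. Separately, ACGTG was found in 5 of 10 and in 16.6% of windows, and GCGTG in 4 of 10 and in 28.2%. The hexamer CACGTG, an E-box that MYC and its relatives recognise and that contains ACGTG on both strands, was found at this start for Pfkm, 1 of the 10 genes, and in 6.02% of windows. The 10 windows had a median GC content of 57.2%, against 52.4% over all windows. Hk1 and Gpi1 had no match to ACGTG or GCGTG at this start, but Hk1 has a second start with 3 matches. Over all 15 listed starts of the 10 genes, 12 held ACGTG or GCGTG and 2 held CACGTG, the other being the second start of Pfkfb3, at 53 bases. A match describes letters only, and its part in the results was not tested.

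The genes around these steps moved in several directions. Of 3 measured genes among 8 other glucose kinases and glucose-6-phosphatases, 1 fell and 2 did not pass. The fallen gene was Slc37a4, the carrier of glucose-6-phosphate into the endoplasmic reticulum (19.1 ± 0.685 to 15.4 ± 0.676 FPKM, log2 fold change −0.26, edgeR adjusted p = 0.0423). It lost its call without Gel/S 2, Gel/S 3 or any C/D library (highest adjusted p = 0.155), with DESeq2 and with the replicate number as a block. Without Gel/S 2 the list held 1 risen gene and no fallen one, as G6pc3, a glucose-6-phosphatase named after its value was seen, was then called as higher (adjusted p = 0.0359). Of 5 genes listed as opposing phosphofructokinase, 2 were measured, although Pfkfb2 among them also makes the activator and so need not oppose that step. Pfkfb2, which like Pfkfb3 both makes and degrades the activator, rose from 1.80 ± 0.0865 to 2.69 ± 0.247 FPKM (log2 fold change 0.63, edgeR adjusted p = 0.00343), a call lost with limma on TPM (adjusted p = 0.0761). Tigar, a phosphatase of the activator and the other gene measured, did not pass (log2 fold change 0.03, edgeR adjusted p = 0.866).

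Below the fructose-1,6-bisphosphate step, 9 of 13 measured genes fell, 1 rose and 3 did not pass, with a median log2 fold change of −0.55. The lactate exporter Slc16a3 (−0.98), the phosphoglycerate mutase Pgam1 (−0.91), the monocarboxylate carrier Slc16a1 (−0.93) and the lactate dehydrogenase Ldha (−0.59) had the smallest adjusted p. The exception in direction was Eno3, the muscle-type enolase, which rose (log2 fold change 0.54, edgeR adjusted p = 0.00301) and is named because it was the only gene of its list to rise. The count of fallen genes was 8 to 9 with any library left out. Gapdh, which did not pass and is named after its values were seen, had means of only 11.9 FPKM in Gel/S and 11.8 in C/D. Ldha had 616 and 398 FPKM. Why Gapdh lay so far below was not tested, so its lack of a call is uncertain.

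**Figure D4:**
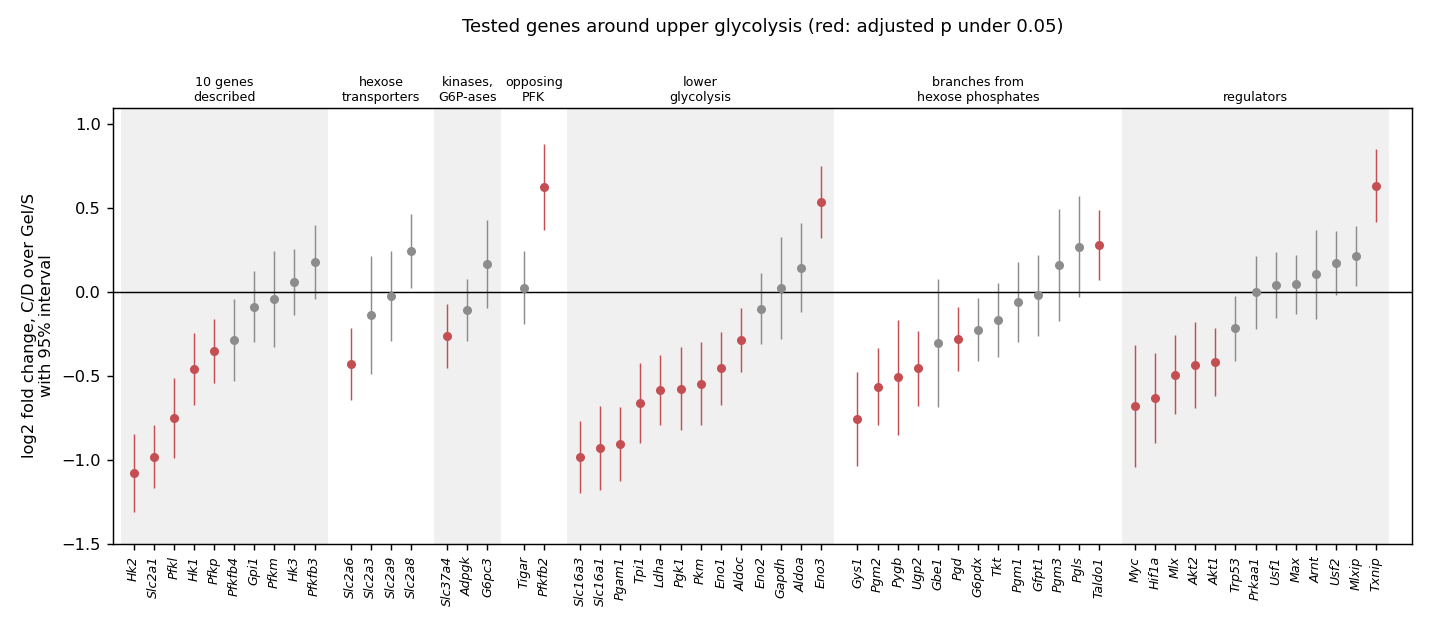
Log2 fold change (C/D over Gel/S, edgeR, bars for the 95% interval) of the 10 genes and of every tested gene of 6 further lists, sorted within each list. Red points passed an adjusted p of 0.05, and the lists other than lower glycolysis hold more grey points than red or as many. The list marked as opposing phosphofructokinase (PFK) also holds Pfkfb2, which makes the activator as well as degrading it.

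Genes that draw hexose phosphates into other routes were mixed, with 5 of 13 fallen, 1 risen and 7 that did not pass (median log2 fold change −0.22). The glycogen synthase Gys1 fell from 18.5 ± 3.73 to 10.6 ± 1.06 FPKM (log2 fold change −0.76, edgeR adjusted p = 0.00197). Pgm2 (−0.56), Ugp2 (−0.46) and Pygb (−0.51), a mutase, a UDP-glucose synthase and a glycogen phosphorylase, fell as well. The pentose phosphate enzymes Pgd (−0.28) and Taldo1 (0.28), named after their values were seen, fell and rose, respectively. Without Gel/S 3 or any 1 of the C/D libraries only 3 of these genes remained called as lower, with Pgd and Pygb lost (highest adjusted p = 0.149 and 0.105), and Pygb was also lost without Gel/S 1. The call of Taldo1 held in 4 of 15 alternatives and was lost without each library except Gel/S 2 (highest adjusted p = 0.158), in the 3 limma fits, with no filter, with edgeR's own filter and with the replicate number as a block. Pygb was also lost in the 3 limma fits and Pgd with the block, and without Gel/S 2 the list had 6 fallen and 2 risen genes.

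Of 13 measured regulators of these genes, 5 fell, 1 rose and 7 did not pass, with a median log2 fold change of −0.0011. Txnip, which encodes an arrestin that removes GLUT1 from the cell surface, had 617 ± 20.7 FPKM in Gel/S and 931 ± 28.2 FPKM in C/D. It was the one that rose (edgeR log2 fold change 0.63 with an SE of 0.0994, adjusted p = 0.00134). Hif1a fell from 15.1 ± 2.36 to 9.43 ± 1.22 FPKM (edgeR log2 fold change −0.63 with an SE of 0.123, adjusted p = 0.00403). Myc fell from 3.71 ± 0.405 to 2.25 ± 0.336 FPKM (log2 fold change −0.68, edgeR adjusted p = 0.0117), a call lost without C/D 3 (adjusted p = 0.0562). Mlx (−0.49), the partner of glucose-sensing transcription factors, and the kinase genes Akt1 (−0.42) and Akt2 (−0.43) also fell. Akt2, named after its value was seen, lost its call without Gel/S 3 or any C/D library (highest adjusted p = 0.0779) and with limma on log2(FPKM + 1) and on TPM. Of the regulators, 3 fell and 1 rose without C/D 3, and 6 fell and 2 rose without Gel/S 1.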

How the data were processed

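The authors deposited 1 table of 54532 gene entries. Its raw counts per gene and its FPKM values were made by the authors per the file headers, FPKM per listed gene length and a scaled library total. The signal columns are the authors' group means of scaled counts, and the log2 fold changes and p-values are the authors' own, per the file headers. The submitters' processing notes name the build GRCm38 (mm10). The sources used here do not give the aligner, counter, strandedness or the authors' test.

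The 27 symbols turned into dates were restored from gene IDs, and counts of 100 symbols with several entries were summed. No entry lacked a gene. Genes with a mean FPKM of at least 1 (11708) were tested with edgeR 4.0.16 (R 4.3.3, quasi-likelihood, TMM), adjusted by Benjamini-Hochberg over all of them, which passed all 10 genes described. The SE is the size of the log2 fold change divided by the root of its F statistic. Isoform shares and ratios used exact permutation tests in scipy 1.17.1. The fit was tested on simulated counts. Alternatives used DESeq2 1.42.0 and limma 3.58.1, other scalings, filters and libraries left out. Genes and lists were chosen with earlier results of these data known. Besides the 10 genes, up to 4 called genes per list with the smallest adjusted p are named, with Txnip, Hif1a and Myc. Others are marked.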

Additional observations from a re-analysis of the deposited data

How the results depend on the processing

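Over 15 alternatives, the log2 fold changes of the 10 genes kept their direction and their side of the threshold in 143 of 150 values. The sign of Hk3 turned with limma on log2(TPM + 1), at −0.075, and without C/D 1, with values of −0.019 to 0.105 over libraries left out. That of Pfkm turned without Gel/S 1 and C/D 3, with values of −0.167 to 0.062 over libraries left out. Neither was called in any alternative run, and the cause was not tested. Pfkp was −0.34 without C/D 2 and −0.33 without C/D 3, where it was not called, and Pfkfb4 was −0.33 and called with no filter. Between 4 and 5 of the 10 genes were called with a library left out, and 6 with no filter. TPM moved the median of all genes to −0.12 and the share of calls that were higher from 48.4% to 29.5%, and relative to that median Slc2a1 (−1.11), Hk2 (−1.18), Pfkl (−0.87), Hk1 (−0.58) and Pfkp (−0.48) stayed lower and were called. Over all genes, 3163 were called, and 1804 to 4078 with a library left out. The low counts came on leaving out Gel/S 3 (1892), C/D 1 (1812), C/D 2 (1804) or C/D 3 (1960). The Hk2 share differed by −9.58 percentage points per longest coding transcript, a length chosen after seeing the data. With libraries left out it differed by −13.0 to −10.8 points, the Pfkp share by 2.73 to 5.24 and the Pfkfb4 share by −8.95 to −6.93. With the replicate number as a block, 2544 genes and 5 of the 10 were called. Deviations of same-numbered libraries from their group means correlated at −0.06, −0.06 and 0.05 across genes, and no library correlated best with its own number. With 3 libraries per group, this cannot show whether same-numbered libraries were handled together. Pfkfb3, Pfkfb4 and Pfkm had the fewest counts, and standard errors on the log2 scale ran from 0.0862 for Slc2a1 to 0.131 for Pfkm, without following the counts gene by gene.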
